A study of Mus musculus with 24 samples.

Results

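The 10 genes followed here encode B-cell proteins that bind antibody tails, sialic acid or other ligands, and they were described across 4 groups of irradiated mice. They are Fcrla, Fcrl1 and Fcrl5, of the Fc receptor-like family; Fcgr2b, Fcmr and Fcer2a, receptors for IgG, IgM and IgE; and Siglecg, Cd22, Cd72 and Lair1, inhibitory receptors for other ligands. They were picked by symbol from the 19938 genes that a probe set of the array named, each had 1 probe set, and all 10 were among the 15647 genes tested. The list was chosen by leukemic against preleukemic values of these same arrays that were already known, so those stage values are given as a description, without a p-value for any of the 10 genes.

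The series holds messenger RNA signals from the bone marrow of 24 mice, with 1 Affymetrix array for each mouse. All mice had been irradiated with 2 Gy, so no group is unirradiated, and they were either wild type or Pax5+/-, with 1 functional copy of Pax5. Leukemic samples are tumor-bearing marrow, labelled B cells, of 4 wild-type and 10 Pax5+/- mice, and preleukemic samples are pro-B and pre-B cells of 3 wild-type and 7 Pax5+/- mice. The labels give 3 weeks after irradiation for leukemic samples too, so their time of sampling is not known here, and give no age, strain, sex or driver of the Pax5 change. The title of the study names the question of how lower Pax5 activity acts in radiation-driven B-cell leukemia. Stage and cell material change together, so a difference between stages cannot be told apart from a difference between tumor-bearing marrow and pro-B or pre-B cells.

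An inhibitory receptor of this kind carries a tyrosine motif (ITIM) in its tail that, once phosphorylated, recruits the phosphatases SHP-1 or SHIP-1 and dampens signals of the B-cell receptor. Cd22, Siglecg, Cd72 and Fcgr2b are the classical brakes of this type on B cells, and Fcer2a is a marker of mature follicular B cells. Pax5 is the transcription factor that commits progenitors to the B lineage, in which it activates many B-cell genes.

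Promoters are shown for 4 genes that lay far lower in the leukemias (Fcrla, Siglecg, Cd72 and Fcmr) and for Cd22, whose mean signal differed little. Each sequence is the 250 bases before the RefSeq start of the gene in GRCm38.p6, 5′ to 3′ on the strand of the gene, with motif matches in capitals. They lie at chr1:170927584-170927833 on the minus strand for Fcrla, chr7:43407989-43408238 on the plus strand for Siglecg, chr4:43454627-43454876 on the minus strand for Cd72, chr1:130865527-130865776 on the plus strand for Fcmr and chr7:30879029-30879278 on the minus strand for Cd22.
Fcrla: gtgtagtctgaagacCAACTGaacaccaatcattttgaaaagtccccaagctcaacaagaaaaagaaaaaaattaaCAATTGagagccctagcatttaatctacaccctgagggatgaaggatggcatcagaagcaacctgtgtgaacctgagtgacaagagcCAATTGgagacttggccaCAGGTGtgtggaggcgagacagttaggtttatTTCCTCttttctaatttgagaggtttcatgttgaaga
Siglecg: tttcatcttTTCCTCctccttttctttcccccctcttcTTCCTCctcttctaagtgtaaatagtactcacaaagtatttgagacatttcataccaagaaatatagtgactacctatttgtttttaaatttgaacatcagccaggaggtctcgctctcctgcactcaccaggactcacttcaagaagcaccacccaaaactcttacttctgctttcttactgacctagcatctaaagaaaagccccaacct
Cd72: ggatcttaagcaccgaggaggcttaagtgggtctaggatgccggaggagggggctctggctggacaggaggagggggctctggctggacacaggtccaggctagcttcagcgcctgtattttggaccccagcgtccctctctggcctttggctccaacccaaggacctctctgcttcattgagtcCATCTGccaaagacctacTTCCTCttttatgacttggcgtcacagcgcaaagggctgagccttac
Fcmr: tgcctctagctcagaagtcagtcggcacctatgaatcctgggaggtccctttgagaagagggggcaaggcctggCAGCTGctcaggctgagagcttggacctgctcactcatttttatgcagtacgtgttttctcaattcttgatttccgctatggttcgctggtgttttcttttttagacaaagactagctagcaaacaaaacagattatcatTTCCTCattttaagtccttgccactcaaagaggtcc
Cd22: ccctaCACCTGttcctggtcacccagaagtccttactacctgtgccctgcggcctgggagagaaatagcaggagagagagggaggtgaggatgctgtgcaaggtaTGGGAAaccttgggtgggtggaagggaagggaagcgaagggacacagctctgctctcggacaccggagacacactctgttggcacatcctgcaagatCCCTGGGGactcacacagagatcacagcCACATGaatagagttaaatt

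The letters searched, on both strands, were the octamer ATGCAAAT, the EBF1 core CCCNNGGG, the PU-box core GAGGAA, the E-box CANNTG and the Ikaros core TGGGAA. Of 32851 windows of the same length, 1.60% held the octamer, 11.8% the EBF1 core, 23.3% the PU-box core, 66.2% the E-box and 21.6% the Ikaros core. The PU-box core appeared once each in the windows of Fcrla, Cd72 and Fcmr, at 37, 47 and 36 bases before the start, and at 2 places in the Siglecg window shown. A second RefSeq window of Siglecg, whose start lies slightly downstream, held none of the 5 motifs. The E-box appeared at 4 places in the Fcrla window, at 1 place each in those of Cd72 and Fcmr and at none in the Siglecg window shown. The Cd22 window held the E-box at 2 places, the EBF1 core at 1 place, the Ikaros core at 1 place and no PU-box core. Among the genes not shown, Fcrl1 and Fcgr2b were lower in the leukemias, and Lair1 was higher in Pax5+/- leukemia. The PU-box core was found in the windows of Fcrl1 and Lair1, and in none of those of Fcgr2b, Fcrl5 and Fcer2a. No octamer was found in any of the 13 windows of the 10 genes. A match of letters is a description and not a binding site.

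Signals are deposited log2 values, on which a difference of 1 is a doubling, and they are compared only within a gene. A value near the dim level of an array, its 30th percentile (5.18 to 5.35), is close to background. The preleukemic wild-type array 1 stood apart: its mean over 16 granulocyte markers was 10.56, against 6.62 and 6.66 on the other wild-type preleukemic arrays, and its monocyte and macrophage mean was 7.10 against 6.19 and 6.26. The leukemic wild-type array 2 also stood apart: its mean over 14 pro-B and pre-B markers was 8.77, against 10.21 to 10.38 on the other wild-type leukemias, and its NK-cell mean was 9.35 against 5.82 to 6.27. The pro-B and pre-B mean was 11.15 to 11.50 in wild-type and 11.04 to 11.44 in Pax5+/- preleukemic arrays, and 8.77 to 10.38 and 9.40 to 10.87 in the leukemic arrays. The mean of 14 monocyte and macrophage markers was 6.01 to 6.21 in preleukemic and 6.84 to 9.03 in leukemic Pax5+/- arrays, and 7.56 to 8.31 in leukemic wild-type arrays. Cd79a, a defining B-lineage marker, was present in every group, with means of 13.10 and 13.04 in the preleukemic and 11.46 and 11.54 in the leukemic wild-type and Pax5+/- groups. The mean of 11 mature B-cell markers was 8.48 to 8.62 and 8.15 to 8.75 in preleukemic and 7.49 to 7.83 and 7.11 to 8.85 in leukemic wild-type and Pax5+/- arrays. Of these, Ms4a1 (CD20) averaged 9.17 and 8.56 before and 6.30 and 5.82 in leukemia, and Cr2 did not exceed the dim level on any of the 24 arrays. These 2 do not stand for the list. Of the 10 mature B-cell markers tested, 3 were called lower and 1 higher in Pax5+/- leukemia, and 4 lower and 0 higher in wild-type leukemia. The mean of 10 stromal and endothelial markers was 6.22 to 6.31 and 6.08 to 6.28 in preleukemic and 7.75 to 8.10 and 7.10 to 8.38 in leukemic arrays, and that of 6 platelet and megakaryocyte markers 6.73 to 6.85 and 6.65 to 6.84 against 9.42 to 10.29 and 8.02 to 10.92. In marrow samples, fewer cells of a type and less RNA per cell cannot be told apart, and the part of the marker shifts in the results below was not tested. In the wild-type groups all 3 preleukemic and none of the 4 leukemic arrays (0 of 4) had high Y-linked signals, so there the sex of the mice and the stage cannot be told apart. Where sex is a term in a fit below, its size comes from the Pax5+/- arrays alone. Of those, 4 of 7 preleukemic and 5 of 10 leukemic arrays had high Y-linked signals. Wild-type values with that term carry this estimate over and do not separate sex from stage.

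In the Pax5+/- mice, 7 of the 10 genes passed the limma threshold between stages (adjusted p under 0.05). Of these, 6 were lower in leukemia, Fcrla, Fcrl1, Fcgr2b, Fcmr, Cd72 and Siglecg, and Lair1 was higher. Over all genes tested, 62.9% passed in that comparison, 35.1% lower and 27.8% higher. In the wild-type mice the same 6 genes were lower and no member was higher, beside 39.1% of all genes, 20.4% lower and 18.7% higher. The median log2 difference of the 10 genes was -1.18 in Pax5+/- and -1.44 in wild-type mice, beside a median of -0.05 over all genes in both. Every leukemic array lay below every preleukemic array for Fcrla, Fcgr2b, Fcmr, Cd72 and Siglecg in each genotype, a pattern that 10.5% of all genes showed in Pax5+/- and 20.4% in wild-type mice. These stage counts are fixed in part by how the list was chosen, and nothing is read from them.

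**Figure D1:**
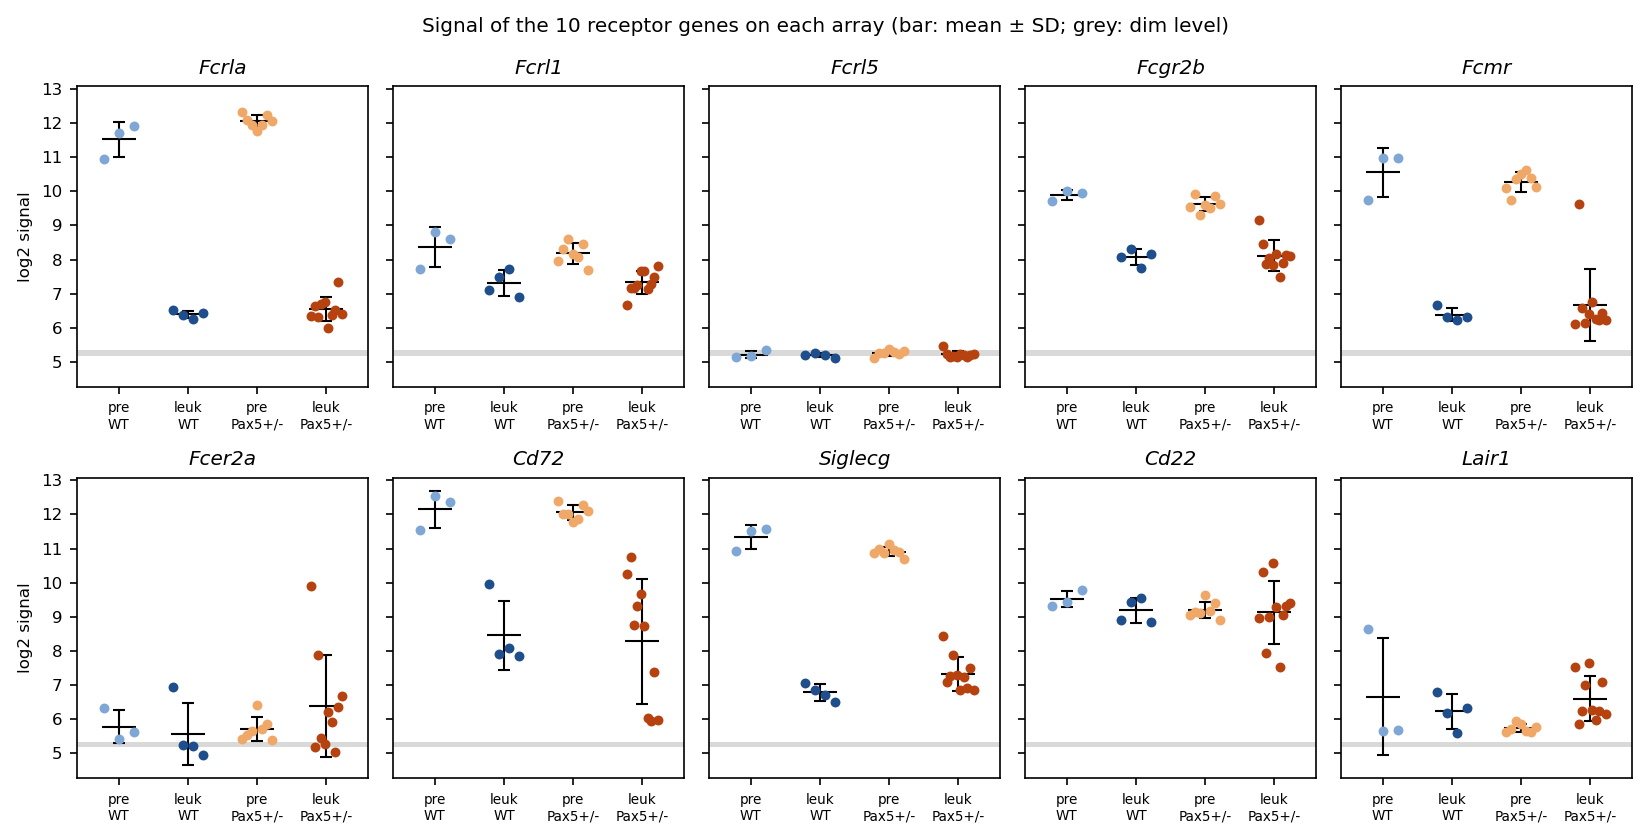
Each point is the log2 signal of a gene on 1 array, grouped as preleukemic and leukemic wild type (3 and 4 arrays) and preleukemic and leukemic Pax5+/- (7 and 10 arrays), with black bars at the mean ± SD and a grey band at the dim level. Fcrla, Siglecg, Cd72, Fcmr and Fcgr2b separate the stages, while Fcrl5 stays near the dim level in every group.

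Fcrla encodes a protein that stays inside B cells and binds immunoglobulin in the secretory pathway. Its signal was 10.94, 11.70 and 11.90 on the preleukemic wild-type arrays and 6.51, 6.38, 6.25 and 6.43 on the leukemic wild-type arrays. In the Pax5+/- mice it ran from 11.75 to 12.32 (median 12.04) before leukemia and from 6.01 to 7.34 (median 6.47) in leukemia. The stages were widely separated, and even the highest leukemia, Pax5+/- array 9, lay 4.41 log2 units below the lowest preleukemic Pax5+/- array. The log2 difference was -5.50 ± 0.15 (SE), a 45.2-fold lower signal, in Pax5+/- mice (n = 10 and 7) and -5.12 ± 0.23, or 34.9-fold lower, in wild-type mice (n = 4 and 3). Without the preleukemic wild-type array 1 the wild-type difference was -5.41.

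Fcrl1 is a surface receptor of B cells whose tail carries activating-type motifs. It was 7.71, 8.81 and 8.61 in preleukemic and 7.12, 7.49, 7.73 and 6.89 in leukemic wild-type arrays, and 7.71 to 8.60 (median 8.17) against 6.67 to 7.81 (median 7.27) in Pax5+/- arrays. The highest leukemic arrays overlapped the lowest preleukemic array in both genotypes, and 12 of the 14 leukemias lay below all preleukemic arrays of their genotype. The log2 difference was -0.85 ± 0.17 (1.80-fold lower) in Pax5+/- and -1.07 ± 0.27 (2.10-fold lower) in wild-type mice, and -1.40 in wild-type mice without the preleukemic array 1.

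Fcrl5, which in mice marks innate-like B cells of the marginal zone and B-1 type, gave signals of only 5.11 to 5.47 over the 24 arrays. It did not exceed the dim level on 15 of them, 2 of 3 and 5 of 7 preleukemic and 2 of 4 and 6 of 10 leukemic arrays of wild-type and Pax5+/- mice. Its stage difference was -0.04 ± 0.05 in Pax5+/- and -0.01 ± 0.07 in wild-type mice, and values so near background set no firm limit on a change. The groups overlapped throughout.

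Among the receptors for antibody tails, Fcgr2b, the inhibitory IgG receptor, was 9.71, 10.02 and 9.94 in preleukemic and 8.08, 8.30, 7.76 and 8.16 in leukemic wild-type arrays. In Pax5+/- mice it was 9.31 to 9.91 (median 9.58) before and 7.49 to 9.16 (median 8.08) in leukemia. The stages did not overlap, although Pax5+/- leukemia 1, at 9.16, came within 0.15 of the lowest preleukemic array. The log2 difference was -1.50 ± 0.16 (2.83-fold lower) in Pax5+/- and -1.81 ± 0.25 (3.51-fold lower) in wild-type mice.

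Fcmr encodes the Fc receptor for IgM. Its signal was 9.73, 10.96 and 10.97 in preleukemic and 6.66, 6.31, 6.22 and 6.33 in leukemic wild-type arrays. In Pax5+/- mice it was 9.75 to 10.61 (median 10.37) before leukemia and 6.11 to 9.62 (median 6.32) in leukemia. Of the leukemias, 9 of the 10 Pax5+/- arrays lay at 6.74 or lower, while array 2, at 9.62, was 0.13 below the lowest preleukemic array. On the log2 scale the difference was -3.59 ± 0.36 (12.0-fold lower) in Pax5+/- and -4.17 ± 0.55 (18.1-fold lower) in wild-type mice, and -4.59 in wild-type mice without the preleukemic array 1.

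Fcer2a, the low-affinity IgE receptor CD23, was 6.33, 5.42 and 5.62 in preleukemic and 6.93, 5.24, 5.21 and 4.95 in leukemic wild-type arrays. In Pax5+/- mice it was 5.41 to 6.43 (median 5.65) before leukemia and 5.05 to 9.92 (median 6.06) in leukemia. Most values were close to the dim level and the groups overlapped, with Pax5+/- leukemias 1 and 3, at 9.92 and 7.88, standing above the rest. The stage difference was, on the log2 scale, 0.67 ± 0.51 in Pax5+/- and -0.21 ± 0.79 in wild-type mice, neither past the threshold. Both rest on single arrays: the Pax5+/- value was 0.28 without leukemia 1 and 0.51 without leukemia 3, and the wild-type value was -0.66 without leukemia 1 and 0.06 without the preleukemic array 1. With sex as a term in the fit, estimated from the Pax5+/- arrays alone, the wild-type value of Fcer2a was -0.99.

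Siglecg binds sialic acid and restrains calcium signals of the B-cell receptor. It was 10.92, 11.52 and 11.56 in preleukemic and 7.06, 6.87, 6.71 and 6.50 in leukemic wild-type arrays, and 10.70 to 11.13 (median 10.89) against 6.85 to 8.44 (median 7.27) in Pax5+/- arrays. No leukemia of either genotype reached the preleukemic range, and Pax5+/- leukemia 1, at 8.44, was the highest. Leukemic minus preleukemic, the log2 difference was -3.57 ± 0.18 (11.9-fold lower) in Pax5+/- and -4.55 ± 0.27 (23.4-fold lower) in wild-type mice.

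Cd22, the other sialic acid-binding receptor of the list, was 9.33, 9.44 and 9.79 in preleukemic and 8.91, 9.45, 9.56 and 8.84 in leukemic wild-type arrays. In Pax5+/- mice it was 8.90 to 9.64 (median 9.15) before leukemia and 7.53 to 10.57 (median 9.18) in leukemia. The leukemias spread to both sides of the preleukemic range, with arrays 5 and 2 at 10.57 and 10.32 and arrays 7 and 3 at 7.53 and 7.93. On the log2 scale the difference was -0.07 ± 0.31 (95% interval -0.70 to 0.57) in Pax5+/- and -0.33 ± 0.47 (-1.31 to 0.65) in wild-type mice, so the intervals leave room for a change of either sign. Without Pax5+/- leukemia 7 the Pax5+/- value was 0.11, and without leukemia 3 it was 0.07.

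Cd72 is a lectin-like receptor with an inhibitory tail that binds semaphorin 4D. Its signal was 11.53, 12.53 and 12.36 in preleukemic and 9.97, 7.91, 8.10 and 7.86 in leukemic wild-type arrays, and 11.78 to 12.39 (median 12.02) in preleukemic Pax5+/- arrays. The 10 Pax5+/- leukemias read 10.26, 10.74, 8.76, 9.33, 9.67, 8.72, 6.03, 5.96, 7.39 and 5.97 for arrays 1 to 10. All lay below the preleukemic arrays, but they were far apart from each other, with an SD of 1.83 against 0.21 before leukemia. The stage difference was, on the log2 scale, -3.77 ± 0.61 (13.7-fold lower) in Pax5+/- and -3.68 ± 0.94 (12.8-fold lower) in wild-type mice. With the replicate number as a block the Pax5+/- difference was -2.98 (7.91-fold lower). The wild-type difference was -4.53 (23.1-fold lower) with a sex term estimated from the Pax5+/- arrays alone, and -3.50 without the leukemic wild-type array 2.

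Lair1 binds collagen and is found on many leukocytes, myeloid cells included. It was 8.64, 5.66 and 5.69 in preleukemic and 6.80, 6.19, 5.59 and 6.34 in leukemic wild-type arrays, and 5.62 to 5.95 (median 5.71) against 5.86 to 7.65 (median 6.27) in Pax5+/- arrays. The 8.64 came from the preleukemic wild-type array 1, the array with the high granulocyte mean. With all arrays, the wild-type log2 difference was -0.43 ± 0.53, and without that array it was 0.56. In Pax5+/- mice the difference was 0.86 ± 0.34 (1.81-fold higher), and the groups overlapped by 0.10 at their edges. This difference no longer passed the threshold when 1 of 7 arrays was left out, namely preleukemic Pax5+/- array 1, 5 or 6, or leukemic Pax5+/- array 1, 4, 5 or 9, with differences of 0.84, 0.84, 0.84, 0.75, 0.81, 0.74 and 0.80. Granulocyte means in leukemic Pax5+/- arrays ran from 6.20 to 10.8, against 6.25 to 6.94 before leukemia, and their part in the Lair1 values was not tested.

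**Figure D2:**
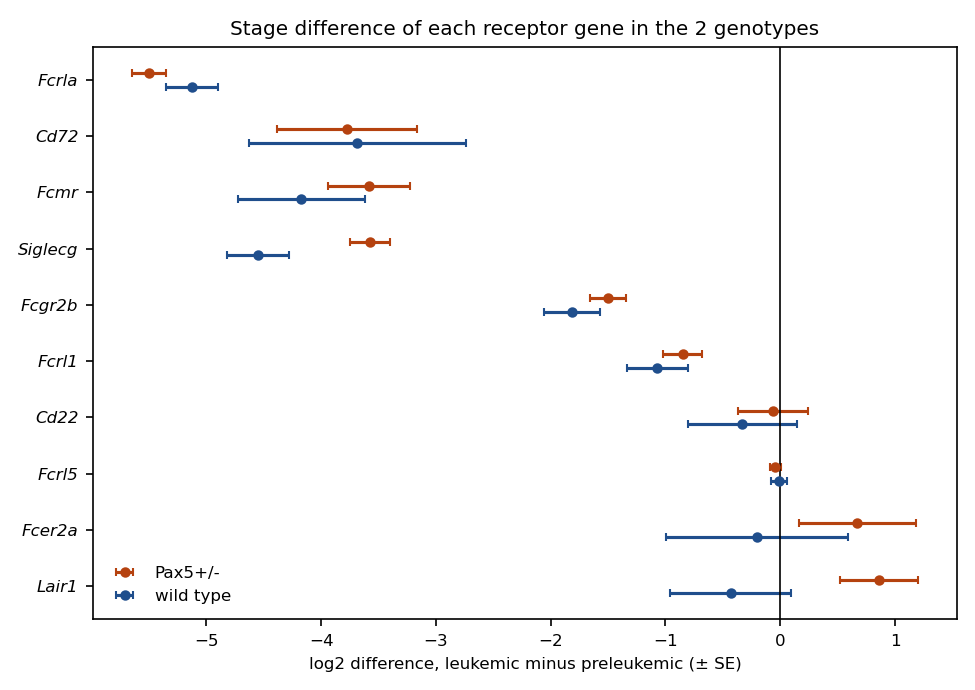
Points give the log2 difference (leukemic minus preleukemic, horizontal axis) of each receptor gene in Pax5+/- (orange) and wild-type mice (blue), and bars give ± 1 SE. Fcrla lies lowest at -5.50 and -5.12, and Cd22 and Fcrl5 lie near 0.

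Genotype was compared next, to ask whether mice with 1 Pax5 copy differed from wild-type mice at the same stage. Sex was not balanced in these comparisons. High Y-linked signals were seen in all 3 wild-type and 4 of 7 Pax5+/- preleukemic arrays, and in 0 of 4 and 5 of 10 leukemic arrays. Fits with a sex term, estimated from the Pax5+/- arrays alone, are given at the end. No receptor gene passed the limma threshold in preleukemic arrays (0 of 10, with 1 of 10 at an unadjusted p under 0.05; 0.786% of all genes passed), in leukemic arrays (0 of 10, 1 unadjusted; 0.16% passed) or in the difference between the stage differences (0 of 10, 1 unadjusted; 0.185% passed). Adjusted p-values from limma ran from 0.365 to 0.999, from 0.46 to 0.992 and from 0.363 to 0.99. The genes at an unadjusted p under 0.05 were Fcrla in preleukemic arrays, and Siglecg in leukemic arrays and in the difference of differences.

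Before leukemia Fcrla averaged 12.04 ± 0.19 (SD, n = 7) in Pax5+/- and 11.52 ± 0.51 (n = 3) in wild-type mice, a log2 difference of 0.53 (95% interval 0.10 to 0.95; limma adjusted p = 0.365). Without the preleukemic wild-type array 1 that difference was 0.24. Siglecg averaged 10.91 ± 0.13 and 11.34 ± 0.36, a difference of -0.43 (-0.94 to 0.08; limma adjusted p = 0.658), and -0.63 without that array. Lair1 differed by -0.92 (-1.90 to 0.07; limma adjusted p = 0.594), and by 0.07 without that array. The other genes had intervals that included 0, the widest being that of Cd72, -1.85 to 1.68.

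In leukemia Siglecg averaged 7.34 ± 0.50 (SD, n = 10) in Pax5+/- and 6.79 ± 0.24 (n = 4) in wild-type mice. Pax5+/- minus wild type, the log2 difference was 0.55 (0.11 to 0.99; limma adjusted p = 0.46) and the groups overlapped. Fcer2a differed by 0.81 (-0.46 to 2.08), Fcmr by 0.30 (-0.59 to 1.18), Fcrla by 0.15 (-0.21 to 0.51), Cd22 by -0.05 (-0.81 to 0.71) and Cd72 by -0.18 (-1.69 to 1.34). For Fcmr and Cd72 these intervals are too wide to set a close limit on a difference of genotype.

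Between genotypes the stage difference of Siglecg differed by 0.98 (95% interval 0.31 to 1.65; limma adjusted p = 0.363), that of Lair1 by 1.29 (-0.01 to 2.59; adjusted p = 0.595) and that of Fcrla by -0.38 (-0.93 to 0.18; adjusted p = 0.774). Without the preleukemic wild-type array 1 the Lair1 value was 0.30 and the Fcrla value -0.09. The Siglecg value was 0.85 to 1.18 when single arrays were left out. The stage differences of the 2 genotypes were thus not shown to differ for any of the 10 genes.

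**Figure D3:**
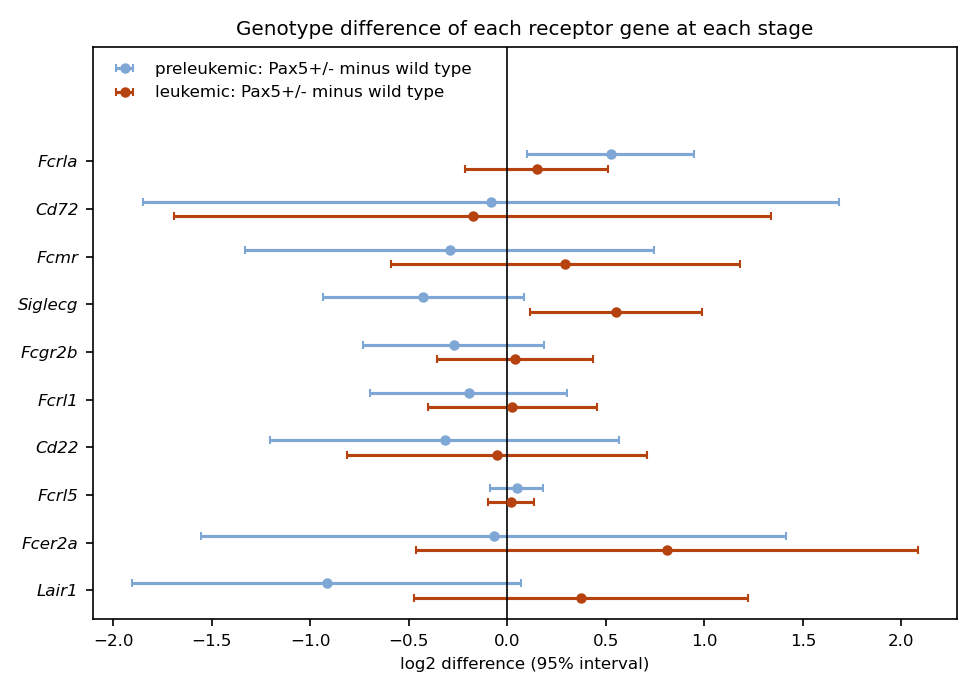
Points give the log2 difference (Pax5+/- minus wild type, horizontal axis) of each receptor gene before leukemia (blue) and in leukemia (orange), and bars give 95% intervals. The widest bars belong to Cd72, and Fcrla before leukemia and Siglecg in leukemia have intervals that leave out 0.

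Pax5 itself averaged 11.88 ± 0.36 and 11.43 ± 0.09 (SD, n = 3 and 7) in preleukemic wild-type and Pax5+/- arrays, and 9.45 ± 2.10 and 8.53 ± 1.22 (n = 4 and 10) in the leukemias. The genotype difference was -0.45 before leukemia (95% interval -2.02 to 1.12; limma adjusted p = 0.96), and where the probe set lies relative to the altered part of the allele is not known here, so it does not check the genotype labels. Between stages Pax5 fell by 2.90 on the log2 scale in Pax5+/- mice (limma adjusted p = 9.4e-05) and fell by 2.43 in wild-type mice (limma adjusted p = 0.0256). The wild-type value rests on leukemia 2, whose Pax5 signal was 6.34: without it the difference was -1.39 (limma adjusted p = 0.106). The wild-type call was also lost without the preleukemic array 2 (-2.37, limma adjusted p = 0.0751) or 3 (-2.29, limma adjusted p = 0.0857).

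Fcrla and Siglecg lay below every preleukemic array of the same genotype in all 14 leukemias. This held for the leukemias with the highest Pax5 signal too. The list was chosen by stage values, so nothing about Pax5 is read from this. Pax5+/- leukemia 2 had a Pax5 signal of 11.37, inside the preleukemic range of 11.34 to 11.59 for its genotype. Its pro-B and pre-B mean was 10.87, the highest of the leukemias, and its granulocyte mean was 6.49. Measured from the preleukemic mean on the log2 scale, Fcrla stood at -5.40 and Siglecg at -3.83 in that leukemia, whereas Cd72 stood at -1.32, Fcgr2b at -1.17, Fcmr at -0.64 and Cd22 at 1.11. The wild-type leukemias 1, 3 and 4, with Pax5 at 10.74, 10.67 and 10.03, had Fcrla at 6.51 or lower and Siglecg at 7.06 or lower. These are single arrays and were not tested.

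**Figure D4:**
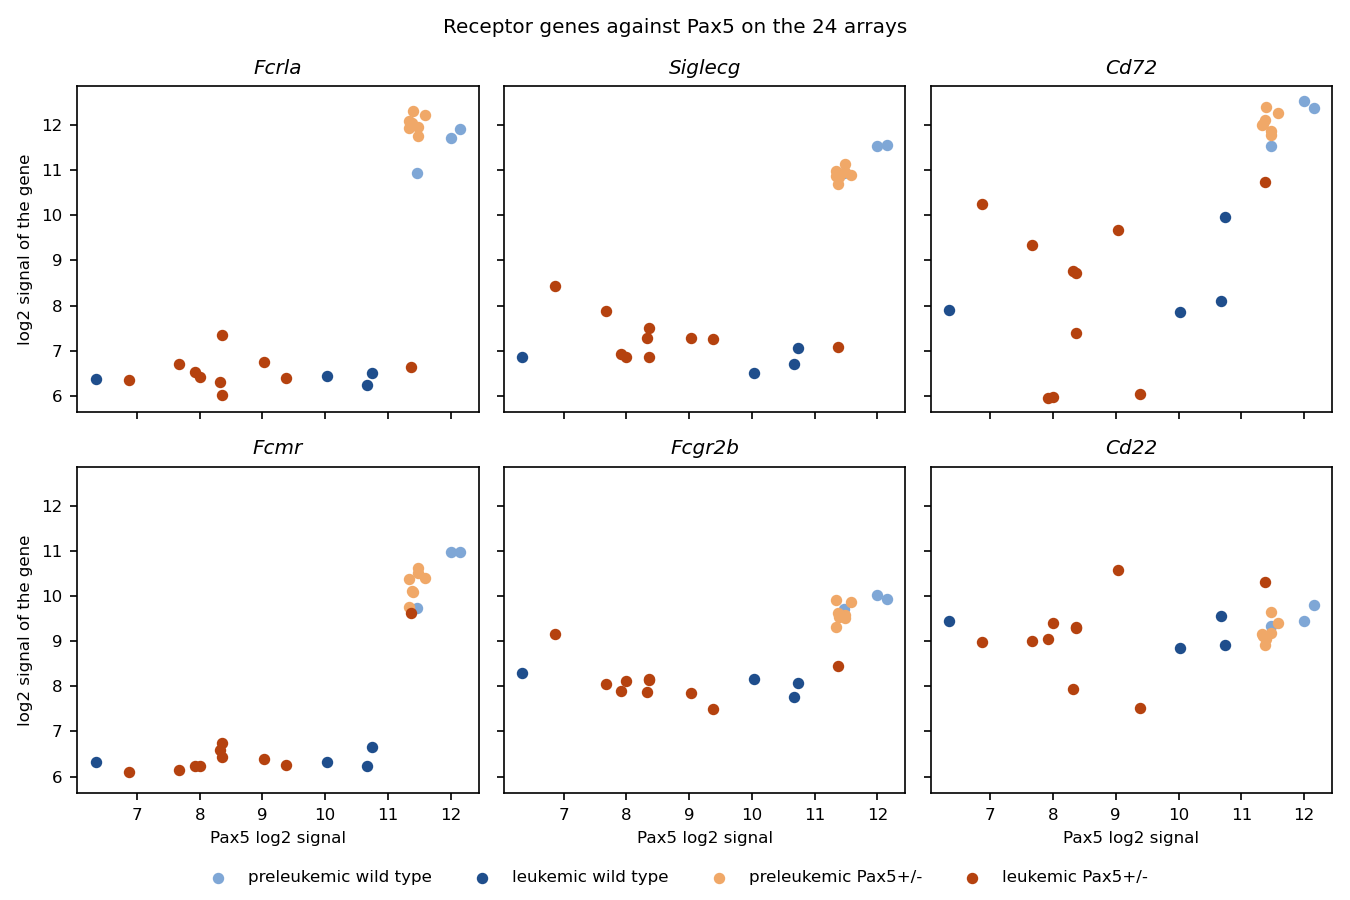
Each point is 1 of the 24 arrays, with the Pax5 log2 signal on the horizontal axis and the log2 signal of 1 receptor gene on the vertical axis. All 14 leukemias lie at 6.01 to 7.34 in Fcrla, a gene of a list chosen by stage values. For Fcmr the single Pax5+/- leukemia with a Pax5 signal of 11.37 lies beside the preleukemic arrays.

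Within the 10 leukemic Pax5+/- arrays, each receptor gene was set against Pax5, the granulocyte mean and the monocyte and macrophage mean, 30 relations in all. None (0 of 30) passed after Benjamini-Hochberg adjustment of permutation p-values, and 5 had an unadjusted p under 0.05. Fcer2a and the monocyte and macrophage mean had Pearson's r of 0.84 (permutation p = 0.00582, adjusted p = 0.175) and Spearman's rho of 0.67 (permutation p = 0.0391, adjusted p = 0.37), and r was 0.40 without the arrays farthest from the median, 8 and 1. Fcmr and Pax5 had r of 0.85 (permutation p = 0.0139, adjusted p = 0.209) and rho of 0.77 (permutation p = 0.0124, adjusted p = 0.37), and r was 0.17 without arrays 1 and 2, so that relation rests on those arrays. The remaining relations under 0.05 were of the monocyte and macrophage mean with Fcgr2b (r = 0.71, rho = 0.38), Siglecg (r = 0.70, rho = 0.36) and Lair1 (r = 0.64, rho = 0.70). Without arrays 8 and 1 their r was 0.10, 0.02 and 0.47, so those of Fcgr2b and Siglecg rest on these arrays. Leaving out Pax5+/- leukemia 2 let 1 relation pass, that of Cd72 with the monocyte and macrophage mean (r = 0.82, exact permutation adjusted p = 0.0369, n = 9). On all 10 arrays that relation had r of 0.59 (permutation p = 0.066, adjusted p = 0.283), and r was 0.32 without arrays 8 and 1.

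The genes most like each receptor gene were found from Pearson's r over the 24 arrays after the group mean was taken from each value. The arrays share groups and normalization, so these values are descriptions. Single arrays lay far from their group for some genes, such as Fcmr on Pax5+/- leukemia 2 (9.62) and Lair1 on preleukemic wild-type array 1 (8.64). Fcrl5 lay near the dim level on all arrays. How far the r values rest on such arrays or on background was not tested. Fcmr was most like Abca6 (r = 0.95) and Peg10 (0.93), Lair1 like Tbc1d8 (0.93) and Ak8 (0.91), Fcer2a like Havcr2 and Jak2 (both 0.89), and Fcgr2b like Zfp516 (0.89) and Tbx19 (0.87). Cd72 was most like Ublcp1 (0.87) and Tanc1 (0.84), Cd22 like Pi4ka (0.86) and Taf6 (0.80), Siglecg like Stx7 (0.84) and Rogdi (0.82), and Fcrl5 like Plxna1 (0.83) and Iffo2 (0.81). The lowest values were those of Fcrl1 with Zfp275 (0.79) and Spata5l1 (0.77) and of Fcrla with Letmd1 (0.75) and Tdrd9 (0.72). Between the receptor genes themselves no pair exceeded the r of 0.58 between Fcrl5 and Siglecg.

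Around the 10 genes, 5 lists of related genes held 78 genes, of which 68 were tested, and the lists were also drawn up with earlier results known. Their counts stand beside the 35.1% of all genes that were lower and 27.8% higher in Pax5+/- leukemia and the 20.4% lower and 18.7% higher in wild-type leukemia, and beside an all-gene median of -0.05 in both. Nothing is called particular to a list. The genes named from the lists were picked among called genes for a large stage difference. Their stage p-values, here and in the next paragraphs, therefore describe the fit and are no separate support. No gene of the lists was called in the difference between the stage differences, so a gene called in 1 genotype alone is not shown to differ between them. Of other Fc receptor genes, 7 were tested. In Pax5+/- mice 3 rose and 3 fell between stages, and in wild-type mice 1 rose and 2 fell, with list medians of 0.28 and 0.34. Fcrl6, a further Fc receptor-like gene, fell 11.5-fold in Pax5+/- mice (limma adjusted p = 6.27e-08) and 15.1-fold in wild-type mice (limma adjusted p = 2.29e-05). Fcer1g, the signalling chain that activating Fc receptors of myeloid cells share, rose 10.5-fold (limma adjusted p = 7.82e-07) and 4.30-fold (limma adjusted p = 0.0165). Its wild-type call was lost without the preleukemic array 2 (2.58-fold) or 3 (3.45-fold), and the value was 8.97-fold without array 1. Fcgr3, an activating IgG receptor, rose 2.28-fold in Pax5+/- mice (limma adjusted p = 0.00556), and its log2 difference in wild-type mice was 0.48 (limma adjusted p = 0.495). Fcgr4 had a log2 difference of 0.99 in Pax5+/- mice (limma adjusted p = 0.0451), with 6 of 7 preleukemic arrays no brighter than the dim level, and 0.71 in wild-type mice (limma adjusted p = 0.4). The Pax5+/- call of Fcgr4 was lost when any 1 of the 7 preleukemic arrays, or leukemia 5 or 6, was left out (0.90 to 1.03). Fcrlb fell by 0.39 and by 0.41 on the log2 scale in Pax5+/- and wild-type mice (limma adjusted p = 8.88e-07 and 0.000336).

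Of 18 other inhibitory receptors, 10 rose and 3 fell in Pax5+/- mice and 2 rose and 3 fell in wild-type mice, with medians of 0.90 and 0.23. Without the preleukemic wild-type array 1 the wild-type counts were 6 and 3. Without array 2 of that group they were 1 and 3, and without array 3 they were 1 and 2. Those that rose most in Pax5+/- mice are known from myeloid cells: Clec12a rose 11.6-fold (limma adjusted p = 1.07e-07), Cd33 4.86-fold, Lilrb4a by 2.22 on the log2 scale with 5 of 7 preleukemic arrays no brighter than the dim level, and Sirpa 4.19-fold. In wild-type mice the values of Cd33, Lilrb4a and Sirpa were 1.83-fold, 2.88-fold and 2.83-fold, not past the threshold (limma adjusted p = 0.305, 0.143 and 0.0544). Clec12a rose 3.60-fold in wild-type mice (limma adjusted p = 0.0194), a call lost without the preleukemic array 2 (2.38-fold) or 3 (2.36-fold), and was 8.33-fold higher without array 1. Milr1 rose 1.89-fold and 1.92-fold in Pax5+/- and wild-type mice. Btla, a lymphocyte receptor for a TNF receptor family ligand, fell 2.92-fold and 2.39-fold, and Ceacam1 fell 2.10-fold and 2.26-fold. The wild-type call of Btla was lost without the leukemic array 3 or 4 or the preleukemic array 3 (2.22-fold, 1.96-fold and 2.16-fold). Beside this, 11 of 16 granulocyte markers and 10 of 14 monocyte and macrophage markers rose in Pax5+/- mice, and 0 and 7 rose in wild-type mice. With single arrays left out in Pax5+/- mice, 6 to 11 granulocyte markers and 7 to 11 of the 18 inhibitory receptors rose. The wild-type granulocyte count rests on the preleukemic array 1, at 10.56: the leukemic wild-type arrays ran from 8.20 to 10.17, and without that array 12 of 16 granulocyte and 10 of 14 monocyte and macrophage markers rose. These leave-out fits of markers, lists and Pax5 were chosen after seeing the data. The part of the markers in these rises was not tested.

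Of 15 genes of B-cell receptor signalling, 8 were lower and 3 higher in Pax5+/- mice and 10 lower and 3 higher in wild-type mice (medians -0.32 and -0.89). Leaving out single arrays gave 7 to 9 lower in wild-type mice. Syk, the kinase recruited to the receptor, fell 3.62-fold and 4.18-fold (limma adjusted p = 1.7e-10 and 1.65e-07). Pik3ap1, an adaptor for PI3 kinase, fell 3.33-fold and 5.37-fold, and the linker Blnk fell 2.60-fold and 9.87-fold. In wild-type mice the Blnk value was 6.19-fold without leukemia 2 and 15.3-fold without leukemia 3. Cd79a, the signalling chain of the receptor, fell 2.83-fold and 3.11-fold (limma adjusted p = 4.49e-07 and 0.000118). Over the same comparison 7 of 14 pro-B and pre-B markers fell and 0 rose in each genotype. Of 10 mature B-cell markers tested, 3 fell and 1 rose in Pax5+/- mice, and 4 fell and 0 rose in wild-type mice. Among all genes tested, 35.1% fell in Pax5+/- and 20.4% in wild-type mice. The part of these markers was not tested.

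Of 16 effectors of inhibition, 9 were higher and 5 lower in Pax5+/- mice and 4 higher and 5 lower in wild-type mice (medians 0.32 and -0.13). Dok3, an adaptor that restrains B-cell receptor signals, fell 4.06-fold and 4.51-fold (limma adjusted p = 9.3e-07 and 0.000236). Ptpn22, a phosphatase acting on antigen receptor kinases, rose 5.63-fold and 3.30-fold, and the adaptor Dok2 rose 2.91-fold and 2.21-fold. The adaptor gene Pag1 rose 2.38-fold and 1.59-fold, and the phosphatase gene Inppl1 fell 1.97-fold and 1.80-fold. The wild-type calls of Ptpn22, Pag1 and Inppl1 were lost without the preleukemic array 2 (2.58-fold, 1.38-fold and 1.70-fold), where 1 of the 16 genes was called higher and 4 lower. Those of Ptpn22 and Pag1 were also lost without the preleukemic array 3 (3.09-fold and 1.52-fold), and that of Ptpn22 without leukemia 1 (2.48-fold).

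Of 12 genes for ligands and the enzymes that shape them, 5 rose and 4 fell in Pax5+/- mice and 5 rose and 2 fell in wild-type mice (medians -0.08 and -0.12). Sema4d, the ligand of Cd72, rose 4.23-fold in Pax5+/- mice (limma adjusted p = 4.37e-10) and 1.95-fold in wild-type mice (limma adjusted p = 0.00414), a call lost without the preleukemic array 2 (1.60-fold). Siae, which removes acetyl groups from the sialic acids that Cd22 and Siglecg bind, rose 3.20-fold and 2.55-fold. Gne, which starts sialic acid synthesis, fell 2.41-fold in Pax5+/- mice (limma adjusted p = 5.69e-08) and 4.27-fold in wild-type mice (limma adjusted p = 1.44e-07). Adam10, the protease that sheds Fcer2a protein, fell 2.48-fold and 2.22-fold (limma adjusted p = 3.22e-12 and 1.43e-07). C1qa, a ligand of Lair1, rose 3.38-fold and 3.58-fold, and the collagen gene Col1a2 rose 2.07-fold and 2.23-fold. C1qa also belongs to the monocyte and macrophage markers, and Col1a2 to the stromal and endothelial markers, of which 9 of 10 rose in each genotype, while 6 of 6 platelet and megakaryocyte markers rose in each. The part of these cells in the ligand values was not tested. In the 3 comparisons that involve genotype, limma called 0 genes of any of the 5 lists.

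**Figure D5:**
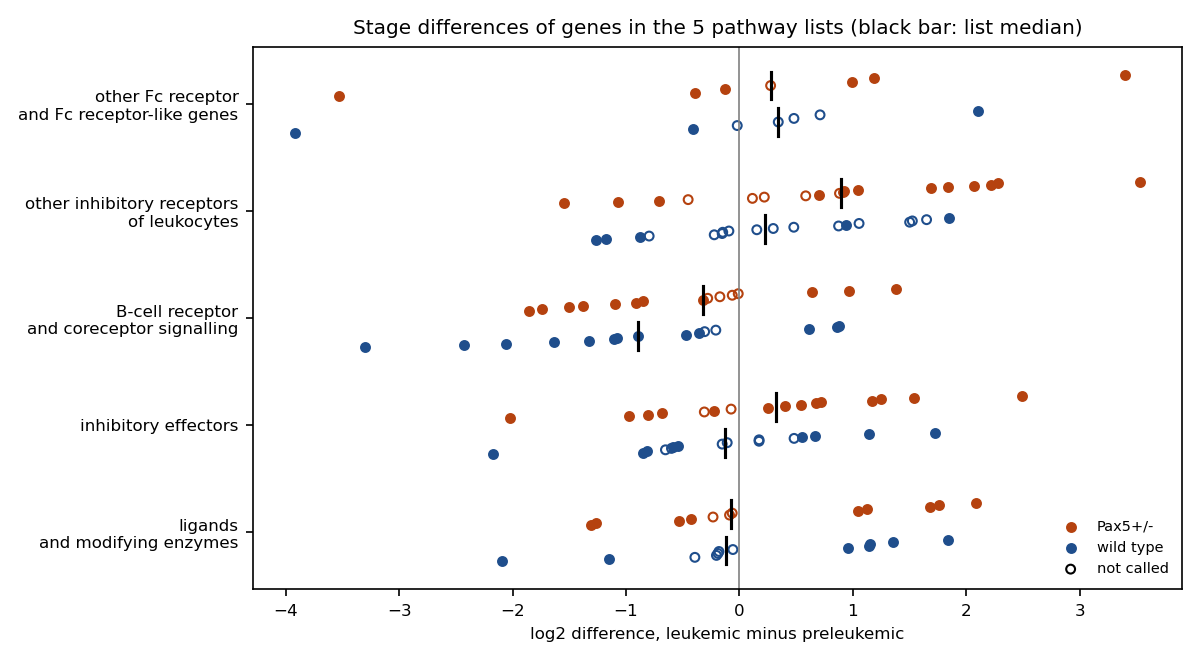
Each point is the log2 difference (leukemic minus preleukemic, horizontal axis) of 1 gene of the 5 related lists in Pax5+/- (orange) or wild-type mice (blue), filled where limma called it, and black bars are list medians. The medians are -0.32 and -0.89 for B-cell receptor signalling and 0.90 and 0.23 for other inhibitory receptors, in Pax5+/- and wild-type mice, beside -0.05 over all genes.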

How the data were processed

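Messenger RNA was measured on 24 Affymetrix arrays, 1 for each mouse. The authors deposited log2 signals of 35556 probe sets. The submitters' processing notes name RMA and oligo, without versions, and batches are not given. RMA on the log2 scale compresses differences near background, and the number of arrays limits the precision.

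The platform table gave the symbols (21789 probe sets with 1 symbol), and a gene took its probe set with the highest mean. A gene was tested if it reached the 30th percentile of the array on at least 3 arrays. Means of 4 groups were fitted with limma 3.58.1 in R 4.3.3 (two-sided, Benjamini-Hochberg over 15647 genes, called at an adjusted p under 0.05), and the procedure was tested on simulated data. Relations used two-sided permutation tests (numpy 2.4.6), with 100000 resamples for 10 arrays and all permutations for fewer arrays. RefSeq windows of GRCm38.p6 gave the promoters.

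The members, lists and tests were chosen with earlier results of these data known. Named genes were the 10 members, Pax5, up to 4 called genes of each related list with the largest stage difference in each genotype, and the 2 genes most like each member. The mature B-cell markers Ms4a1 and Cr2 were named outside these rules. Alternatives covered limma settings, the groups fitted, probe sets, filters, scaling, array weights, sex, a replicate block and leaving out arrays. Deviations of samples with the same replicate number in different groups had r from -0.36 to 0.32 (24 pairs, 4 over 0.1). Pairs with different numbers were not compared, so a shared deviation was not tested. Some genes of the lists were not analysed here.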

Additional observations from a re-analysis of the deposited data

Results flagged for a closer look

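Single arrays stood apart from the others of their group in 4 of 30 gene and group combinations of 4 to 10 arrays (Dixon's gap over range), where chance would give about 1 in 20. Fcmr read 9.62 on Pax5+/- leukemia 2, with the other leukemias of that group at 6.74 or lower. Cd72 read 9.97 and Fcer2a 6.93 on wild-type leukemia 1. Fcrl5 read 5.47 on Pax5+/- leukemia 1, a value near background.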

How the results depend on the processing

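The count of receptor genes called was 6 or 7 in Pax5+/- mice and 6 in wild-type mice under every alternative run, and 0 in the 3 genotype comparisons, where no adjusted p of a receptor gene was below 0.105. Centring arrays on the median of the genes tested, chosen after seeing the data, moved the median of all genes by -0.20 (Pax5+/-) and -0.12 (wild type); Fcrl5 was then called at -0.24 and Lair1, at 0.66, was not. Signs of uncalled genotype differences changed as follows, and the cause was not tested. With sex as a term the difference of differences was -0.0038 for Fcrl1, 0.021 for Fcrl5 and 0.69 for Cd72, and the leukemic genotype difference was -0.10 for Fcrl1 and 0.25 for Cd72. With the replicate block, Cd72 was 0.55 in the difference of differences, 0.40 before leukemia and 0.96 in leukemia, Fcer2a was 0.42 before leukemia and Fcrl1 -0.11 in leukemia; the block changed no call. With quantile normalization repeated, the difference of differences of Cd72 was 0.0025. Leaving out single arrays gave, for the difference of differences, -0.094 to 0.011 for Fcrl5 and -0.36 to 0.41 for Cd72. Before leukemia it gave -0.53 to 0.02 for Fcrl1, -0.25 to 0.20 for Fcer2a, -0.39 to 0.11 for Cd72 and -1.42 to 0.073 for Lair1. In leukemia it gave -0.11 to 0.17 for Fcrl1, -0.0085 to 0.038 for Fcrl5, -0.078 to 0.11 for Fcgr2b, -0.032 to 0.39 for Fcmr, -0.45 to 0.33 for Cd72 and -0.21 to 0.12 for Cd22. Of the stage values, Cd72 in Pax5+/- mice was -2.98 with the block, and with sex as a term the wild-type values of Cd72, Siglecg, Fcer2a and Lair1 were -4.53, -4.97, -0.99 and -1.04. The sex term is estimated from the Pax5+/- arrays alone, since sex and stage coincide in the wild-type arrays. Leaving out single arrays, chosen after seeing the data for Pax5 and the markers, lost the wild-type Pax5 call 3 times (-2.37 to -1.39). The same fits called 0 to 12 of 16 granulocyte markers higher and 0 to 6 of 9 NK-cell markers lower in wild-type mice. In Pax5+/- mice they called 6 to 11 of 16 granulocyte markers higher. The relations past the threshold numbered 0 to 1 when single arrays were left out. The fit of only the groups compared gave no value for the difference of differences, which uses all groups. Signals near the dim level limit Fcrl5 and Fcer2a.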
